A study of Mus musculus with 2 samples.

Results

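*Sst* cells, the segmented cells that held at least 2 transcripts of *Sst* and at least 20 transcripts of the probe panel in all, numbered 278 in a control section and 1825 in a *Dnmt1* knockout (KO) section of the E16.5 mouse brain. They were 2103 of the 156481 cells of both sections that reached the minimum of 20 transcripts, and no cell identifier was shared between the sections. The measurement was MERFISH, which reads single RNA molecules in a tissue section through fluorescent barcodes imaged over successive rounds. The panel held 500 genes and 50 blank barcodes that code for no gene.

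The control section came from an *Sst-Cre/tdTomato* embryo, and the KO section from an *Sst-Cre/tdTomato/Dnmt1 loxP2* embryo. Both carried 1 *Sst-Cre* allele and the Cre-dependent red reporter tdTomato from the Rosa26 locus, and only the KO embryo carried loxP sites in *Dnmt1*, the gene of a maintenance DNA methyltransferase. The *Dnmt1* allele was brought in from a B6; 129S line, so the groups also differed in breeding. Both sections were coronal, 10 µm thick and cut from whole heads that had been flash-frozen. Cre comes from the *Sst* locus, so recombination follows past as well as present expression of *Sst*, in every tissue of the embryo where the locus has been active. Neither *Dnmt1* nor Cre nor tdTomato was on the panel, so the cells described here are those with *Sst* RNA at E16.5, and neither recombination nor genotype could be checked in them. Each group is 1 section, imaged in a run of its own. Genotype and run therefore cannot be told apart, no test was possible and no p-value is given. Intervals are exact 95% intervals and cover counting error only.

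Somatostatin is a small inhibitory neuropeptide that acts on G protein-coupled receptors. In the forebrain it marks a large class of GABAergic interneurons that are born in the medial ganglionic eminence (MGE) of the ventral telencephalon and migrate tangentially into cortex, striatum, olfactory cortex and amygdala. Their fate depends on the LIM homeodomain factor LHX6 and, downstream of it, on SOX6. *Sst* is also made by neurons of other origin, among them neurons of the hypothalamus, so the gene alone does not define an MGE lineage. In the mouse genome (GRCm39) the *Sst* gene lies on the minus strand of chromosome 16, from 23707321 to 23711733. The *Sst* transcript that was probed has 2 exons and ends at 23709708. *Lhx6* lies on the minus strand of chromosome 2, from 35971964 to 35995601, and *Npy* on the plus strand of chromosome 6, from 49799026 to 49806489. The build used for the probes was not given in the sources used here.

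Since *Sst* chose the cells, its own level is a description. In the control section 178 *Sst* cells (64.0%) had exactly 2 *Sst* transcripts, 84 had 3 or 4, and 16 (5.76%) had 5 or more, with a highest value of 9. In the KO section 793 cells (43.5%) had exactly 2, 549 had 3 or 4 and 483 (26.5%) had 5 or more, with a highest value of 35. Just outside the rule, 1278 control and 4000 KO cells over the transcript minimum had exactly 1. Microglia, which should lack *Sst* and were chosen by at least 3 transcripts of *Csf1r*, *C1qa* and *Cx3cr1*, showed the background. They had at least 1 *Sst* transcript in 1.14% of 792 control and 3.89% of 2186 KO cells, and at least 2 in 0 of the control cells, which allows up to 0.465%, and in 0.732% of the KO cells. Median depth in these microglia was 52 and 159 transcripts.

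*Sst* cells were 0.503% (0.446 to 0.566) of the cells over the minimum in control and 1.80% (1.72 to 1.89) in KO tissue. Depth moved with that difference. The median *Sst* cell held 46 panel transcripts in control and 192 in KO tissue, against 34 and 108 in all other cells over the minimum. When KO counts were thinned at random to the control's depth before the cells were chosen, 21.2% of the transcripts remained, 308 of 59777 cells met the rule, and the share was 0.515% (0.459 to 0.576). These KO cells had a median of 47.5 transcripts. The share of *Sst* cells therefore did not differ between the sections beyond counting error at matched depth.

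Levels of *Lhx6* and *Gad1* differed with the *Sst* count, which the rule used only as a threshold. Levels are given as CPM, transcripts of a gene per 1000000 panel transcripts other than *Sst* in the summed cells, and compare 1 gene between sets of cells. *Lhx6* in the KO section was 4117 CPM in cells with no *Sst* transcript, 7832 in those with 1, 13121 in those with 2, 17623 in those with 3 or 4 and 20109 in those with 5 or more. In the control section the same series was 4901, 11827, 17663, 17504 and 24715 CPM, with no rise from 2 to 3 or 4. The control value at 5 or more came from 26 transcripts in 16 cells (16144.5 to 36213). *Gad1*, which makes the enzyme of GABA synthesis, went from 5867 to 24942 CPM over the KO series and from 6723 to 40875 CPM over the control series. Cells with 1 *Sst* transcript thus lay between those with none and those with 2 for both genes in both sections. *Tbr1*, a transcription factor of pallial neurons, did not follow this order, at 13140, 12081, 14248, 12599 and 9028 CPM over the KO series. *Slc17a7*, the vesicular glutamate transporter of pallial neurons, was highest at 2 *Sst* transcripts in the KO section, with 997, 2165, 3145, 2740 and 2054 CPM. In the control section it was 1566, 3372, 5548, 6251 and 6654 CPM. There the intervals at 2 (4104 to 7335), 3 or 4 (4218 to 8924) and 5 or more (2675 to 13710) overlapped, so no rise between these is shown.

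*Lhx6* and the genes of GABA synthesis were seen in a larger share of *Sst* cells than of microglia. Each cell was thinned to 20 transcripts other than *Sst*, so that depth was the same in all cells compared. This left 271 control and 1824 KO cells. *Lhx6* was then seen in 32.8% (27.3 to 38.8) of the *Sst* cells of the control section and 29.2% (27.1 to 31.4) of those of the KO section, against 3.03% and 3.16% of microglia. *Gad1* or *Gad2* was seen in 45.4% (39.3 to 51.5) and 42.1% (39.8 to 44.4), against 4.67% and 6.59% of microglia. At the deposited depth the shares were 52.5% and 82.3% for *Lhx6*, and 74.8% and 94.2% for *Gad1* or *Gad2*. Those thinned values are 1 random draw. The exact mean over all draws was 30.4% in control and 29.3% in KO tissue for *Lhx6*, with an SD over draws of 1.96 and 0.917 percentage points, and 48.6% and 43.4% for *Gad1* or *Gad2*, with an SD of 2.28 and 1.05. Thus the sections differed in both shares as deposited but not beyond counting error at matched depth. With cells of at least 1 *Sst* transcript, a larger set, both shares were lower in KO tissue, with mean KO minus control differences of -3.33 percentage points (-6.50 to -0.191) for *Lhx6* and -3.94 (-7.65 to -0.278) for *Gad1* or *Gad2*. All these cells were chosen at the deposited depth, which differed between the sections. KO counts were also thinned to control depth before cells with at least 2 *Sst* transcripts were chosen. The differences were then 1.49 points (-9.81 to 12.7) for *Lhx6* and 4.95 (-6.99 to 16.8) for *Gad1* or *Gad2*, in 1 draw. For cells with at least 1 *Sst* transcript the means were not taken after such thinning.

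**Figure D1:**
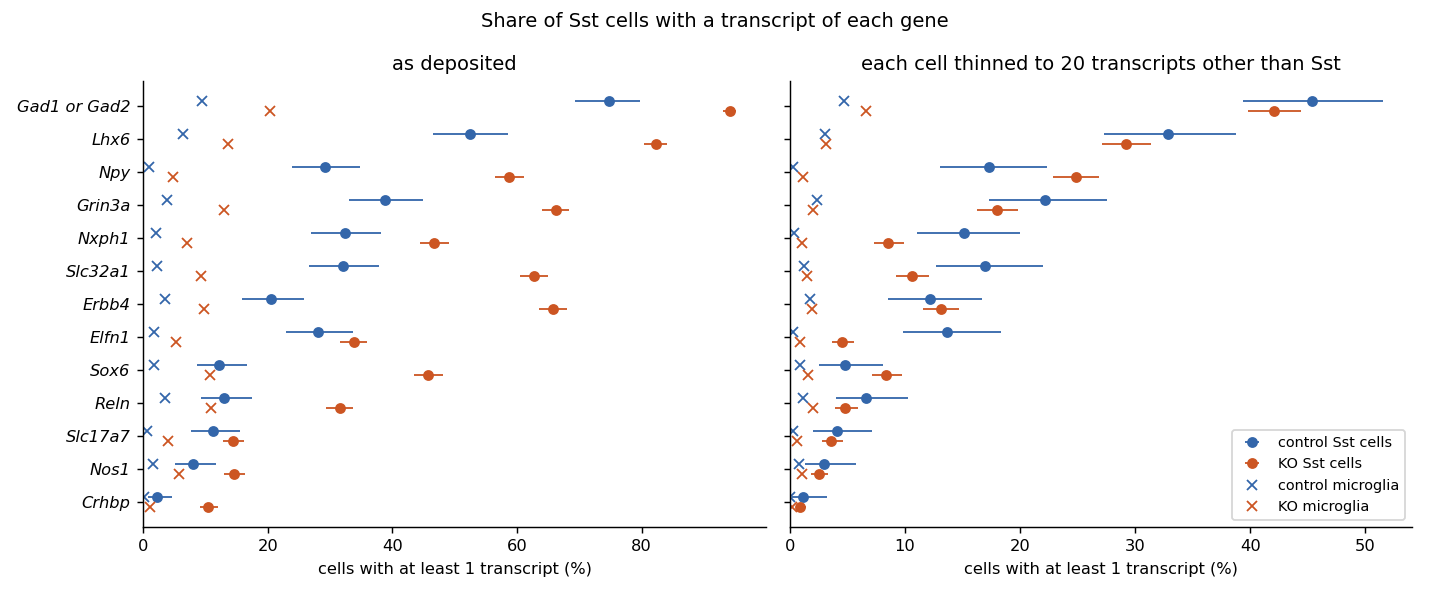
Percentage of *Sst* cells with at least 1 transcript of each gene (horizontal axis) in the control and KO sections, as deposited and after each cell was thinned to 20 transcripts other than *Sst*. Points with bars are *Sst* cells with exact 95% binomial intervals and the other markers are microglia, the background. *Lhx6* lay at 52.5% and 82.3% as deposited and at 32.8% and 29.2% after thinning.

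Which panel genes stood apart in *Sst* cells was asked by comparing their summed transcripts with those of all other cells over the minimum, in each section on its own. Of the 211 genes with at least 10 transcripts in the *Sst* cells of both sections, 45 (21.3%) were at least 2-fold higher in both sections and 22 (10.4%) at least 2-fold lower in both. The median over all genes tested was 0.46 on the log2 scale (mean of both sections), so a typical tested gene was also higher in *Sst* cells. The minimum was set on the *Sst* cells, so genes low in them were more often left out. The median and both counts therefore do not describe the whole panel. What the make-up of the panel and of the other cells adds was not tested.

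The highest ratio was that of *Npy*, the gene of neuropeptide Y, which a subset of *Sst* interneurons co-expresses in the adult. It measured 13689 CPM (11862 to 15718) in control *Sst* cells against 947 in other cells, and 19718 CPM (19281 to 20162) against 1172 in the KO section, log2 ratios of 3.85 and 4.07. *Elfn1*, a synaptic adhesion protein known from *Sst* interneurons, followed at 8854 against 1136 CPM and 2940 against 592 CPM, log2 ratios of 2.96 and 2.31. *Nxph1*, a secreted ligand of neurexins, had log2 ratios of 2.73 and 2.15. By the lower of both sections, these were the highest 3 ratios.

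Of the MGE interneuron list, 9 genes were on the panel, 8 were tested and 5 were at least 2-fold higher. Besides *Elfn1* and *Nxph1* they were *Lhx6* (log2 ratios of 1.83 in control and 1.93 in KO tissue), *Erbb4*, the neuregulin receptor of migrating interneurons (1.73 and 1.54), and *Sox6* (1.81 and 1.56). The median of the list was 1.66. Tested members under 2-fold included *Npas1* (0.86 and 0.81) and *Dlx1* (0.15 and -0.21), transcription factors of GABAergic lineages. *Dlx1* is shared by progenitors and by most GABAergic neurons of the ventral forebrain. *Pvalb* had too few transcripts to be tested.

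For GABA synthesis and transport, *Gad1* (1.91 and 1.67) and *Slc32a1*, the vesicular GABA transporter (2.07 and 1.39), passed 2-fold in both sections, and *Gad2* was at 1.02 and 0.68. Among 18 neuropeptides and markers of interneuron subclasses on the panel, 7 were tested and 3 passed, namely *Npy*, *Calb1*, a calcium-binding protein (1.94 and 1.61), and *Nts*, neurotensin (1.07 and 1.41). *Nos1*, which with *Npy* marks long-range projecting *Sst* neurons in the adult, was at 0.97 and -0.05. The 5 tested genes of the CGE interneuron list, which stands for the caudal ganglionic eminence, had a median of -0.30 and none passed in either direction, *Prox1* for example at -0.74 and -0.46. *Vip* had too few transcripts to be tested.

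The list of channels and guidance molecules was near the level of all genes tested. Of its 9 genes on the panel 8 were tested, and 2 were higher and 1 lower. Over all 211 genes these shares were 21.3% and 10.4%. The list median was 0.51, against 0.46 over all genes. *Epha6*, an ephrin receptor (1.88 and 1.82), and *Grin3a*, an NMDA receptor subunit (1.72 and 2.34), were higher, and *Nrp1*, the semaphorin receptor that steers migrating interneurons, was lower (-2.33 and -2.09). The only somatostatin receptor with enough transcripts, *Sstr2*, was lower too, at 749 against 1926 CPM in control and 967 against 3343 CPM in KO tissue, log2 ratios of -1.36 and -1.79. The remaining genes among the 10 highest were *Grik1*, a kainate receptor (2.16 and 2.04), *Epha10* (2.11 and 1.85), *Chrm3*, a muscarinic receptor (1.81 in both), *Vwc2* (2.54 and 1.80) and *Sphkap* (1.75 and 1.77).

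Genes of progenitors, glia, vessels and connective tissue were mostly low where they could be tested. The 5 lowest ratios were those of *Igf2* (-4.05 and -4.19), *Dcn*, a matrix proteoglycan (-3.81 and -4.93), *Thbs2* (-3.08 and -4.62), *Ccdc80* (-2.85 and -3.23) and *Top2a*, a topoisomerase of dividing cells (-2.72 and -3.65). All 3 tested genes of the radial glia list (*Ccnd2*, *Sox9*, *Top2a*), 2 of 3 of the oligodendrocyte lineage (*Olig2*, *Pdgfra*), the endothelial gene *Cldn5* and both tested connective tissue genes were at least 2-fold lower. None of the microglial or mural genes had enough transcripts to be tested. Other lists did not go this way. Of 9 tested genes of striatal projection neurons and 3 of Cajal-Retzius cells, early neurons of the cortical surface, 0 passed 2-fold in both sections in either direction, with *Reln* at 1.12 and 0.65. *Sertm1* of the ventral or diencephalic list was higher (1.71 and 1.99). Of 6 tested genes of the pallial list, 1 was higher, *Slc17a7* (1.86 and 1.34), and 1 lower, *Fezf2*, a factor of deep-layer projection neurons (-2.96 and -2.44). The other glutamate transporter tested, *Slc17a6*, was at -0.04 and -0.08.

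**Figure D2:**
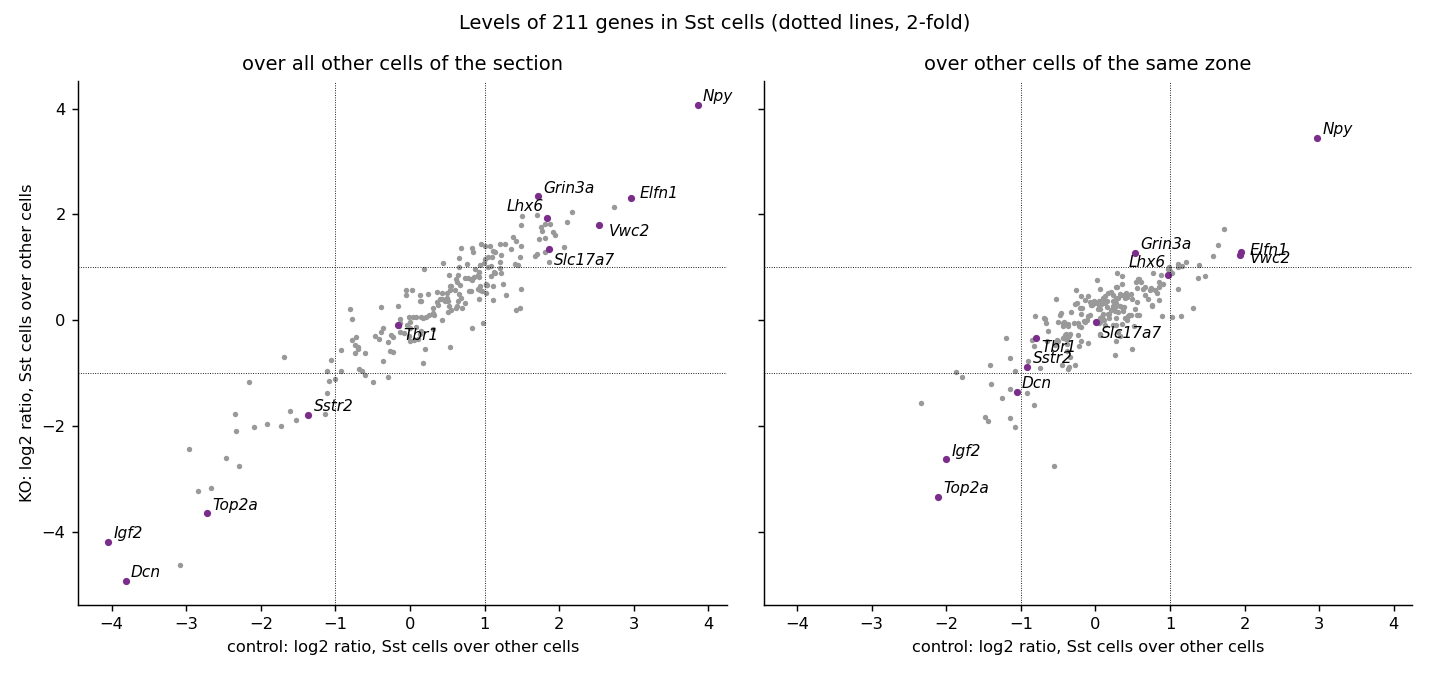
Log2 ratio of each of 211 genes in *Sst* cells over other cells, control section on the horizontal and KO section on the vertical axis, with all other cells of the section (one panel) and the other cells of the same zone (the other panel) as the comparison. Dotted lines mark 2-fold, and *Npy* lies highest in both panels, at 3.85 and 4.07 against all other cells.

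Fewer genes reached 2-fold against cells from the same place. Every cell was placed in a zone by the transcripts of the other cells within 100 µm, with *Sst* cells left out, and by lying above or below the centres of the striatum. When each *Sst* cell was compared with other cells of its own zone, 11 of the 45 higher genes stayed at least 2-fold higher in both sections (5.21% of 211), and 12 of the 22 lower genes stayed lower (5.69%). The 11 were *Npy* (2.97 and 3.44), *Moxd1* (1.73 and 1.73), *Vwc2* (1.95 and 1.29), *Nxph1* (1.64 and 1.43), *Elfn1* (1.94 and 1.24), *Sox6* (1.58 and 1.22), *Stxbp6*, *Grik1*, *Ptprm*, *Gad1* (1.16 and 1.03) and *Calb1*. *Lhx6* was under 2-fold in both sections, at 0.98 and 0.86. *Erbb4* (1.02 and 0.89) and *Slc32a1* (1.47 and 0.84) were under 2-fold in the KO section only, and *Grin3a* (0.53 and 1.27) in the control section only. Summed over zones, *Slc17a7* in *Sst* cells was close to the other cells of the zone, at 0.00 and -0.04. *Slc17a7* belongs to the pallial list that placed cells in zones, so its level in the comparison cells is in part set by that choice. The median over all genes tested was 0.15 here, and that of the 8 MGE genes was 0.94.

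A closer comparison set *Sst* cells beside cells with *Lhx6* and *Gad1* or *Gad2* but no *Sst*, of which there were 3768 in control and 14181 in KO tissue. These cells had to hold *Lhx6* and Gad transcripts, so the levels of those genes are set by the choice. Of the 211 genes, 9 (4.27%) were at least 2-fold higher in *Sst* cells in both sections and 5 (2.37%) lower. *Npy* was again far higher (2.82 and 3.05). The others were *Moxd1* (1.92 and 2.01), *Slc17a7* (3.10 and 1.75), *C1ql3* (2.48 and 1.76), *Vwc2* (1.62 and 1.31), *Prdm8* (2.02 and 1.23), *Epha10*, *Il1rapl2* and *Cbln2*. The comparison cells lay in other places, with 9.10% and 15.7% in pallial surroundings against 25.9% and 23.6% of *Sst* cells. *Npy*, *Moxd1* and *Vwc2* were also 2-fold higher within zones. *Slc17a7* (0.00 and -0.04), *C1ql3* (0.48 and 0.10) and *Il1rapl2* (0.24 and -0.08) were close to the other cells of their zone. The lower genes were *Top2a* (-1.34 and -2.89), *Nrp1* (-1.65 and -1.73), *Pou3f2* (-1.08 in both), *Fezf2* and *Cldn5*. *Nxph1* (1.35 and 0.84) and *Elfn1* (1.26 and 0.87) passed 2-fold in the control section only. None of the 8 tested MGE genes passed in both sections, with a list median of -0.11. *Lhx6* is among these 8, so the count and the median are in part set by the choice of the comparison cells.

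*Sst* cells lay low and to the sides of the section. Position was measured from the line midway between both striatal centres and from the level of these centres. Of the *Sst* cells inside the brain, 93.4% of 274 in control and 87.5% of 1815 in KO tissue lay below that level, against 51.6% and 43.7% of other cells. A ventrolateral position, below it and at least 500 µm from the dividing line, held 92.3% (88.5 to 95.2) and 84.7% (82.9 to 86.3) of them, against 35.5% and 29.2% of other cells. Cells with *Lhx6* and Gad but no *Sst* also lay mostly below the level, at 86.3% in control and 74.4% in KO tissue. They were less lateral, with 67.7% and 57.6% in the ventrolateral position. Within 200 µm of the connective tissue around the brain lay 38.7% of control and 47.5% of KO *Sst* cells, against 23.6% and 24.6% of other cells.

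**Figure D3:**
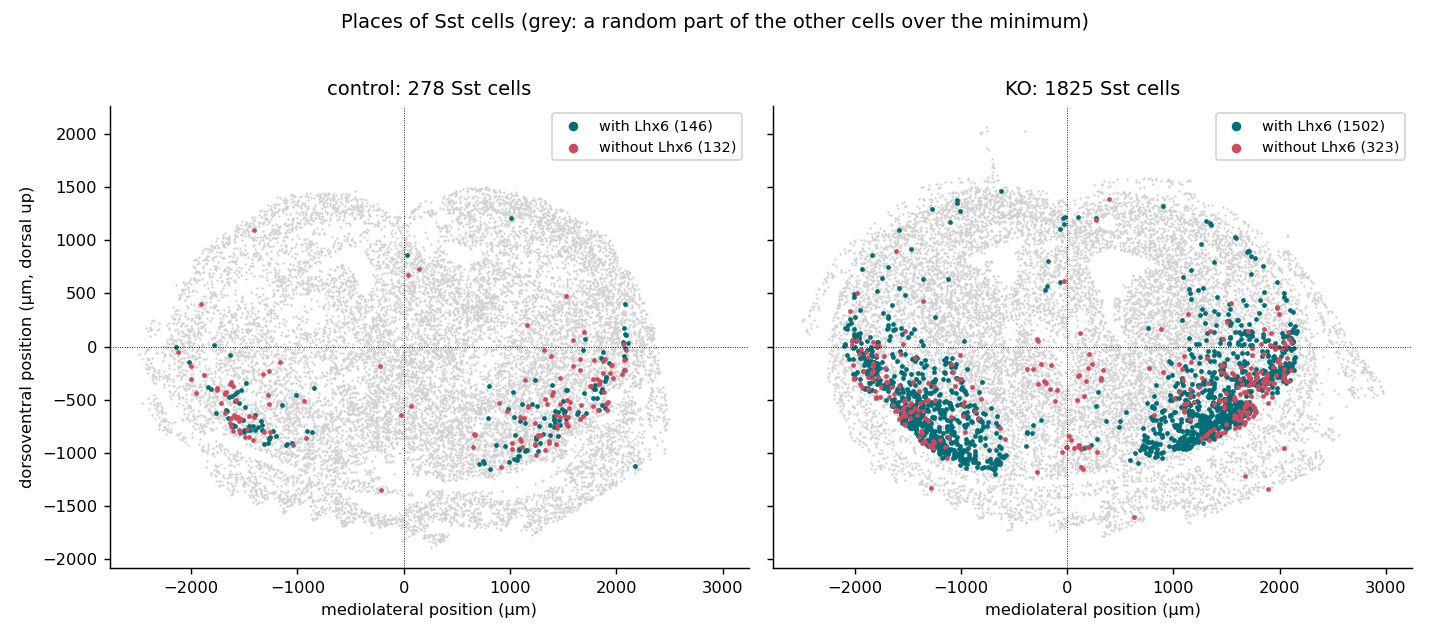
Places of the 278 control and 1825 KO *Sst* cells, coloured by whether they held an *Lhx6* transcript, over a random part of the other cells in grey. Mediolateral position is on the horizontal and dorsoventral position on the vertical axis, both in µm. Most *Sst* cells lie below the level of the striatal centres (horizontal dotted line) on both sides of the dividing line (vertical dotted line).

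By zone, no single set of surroundings held most of the *Sst* cells. The largest group, 114 control cells (41.0%) and 829 KO cells (45.4%), lay below the striatal centres where none of the 4 region lists stood out, called the ventral unassigned zone here, which held 13.3% and 13.2% of other cells. The ventral pallial zone, with surroundings rich in *Tbr1* and *Slc17a7* below that level, held 61 (21.9%) and 302 (16.55%) of the *Sst* cells but 3.60% and 2.57% of other cells. The striatal zone held 56 (20.1%) and 432 (23.7%). The zone of the ventral or diencephalic list held 31 (11.2%) and 112 (6.14%). The dorsal pallial zone, which contains the cortex, held 11 (3.96%) and 128 (7.01%), against 18.4% and 24.9% of other cells. Dorsal unassigned surroundings held 1 control and 12 KO cells, and connective surroundings 4 and 10.

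*Sst* cells were densest in the ventral pallial zone of both sections. They made up 2.99% of all cells there in control and 10.6% in KO tissue, against 1.54% and 5.92% in the ventral unassigned, 0.654% and 2.39% in the striatal, 0.321% and 0.891% in the ventral or diencephalic and 0.109% and 0.514% in the dorsal pallial zone. The order of the 5 zones was the same in both sections. Among microglia, the background, 0.732% (0.419 to 1.19) in KO and up to 0.465% in control tissue held at least 2 *Sst* transcripts. The shares of the dorsal pallial and the ventral or diencephalic zone were not above this background beyond counting error. This comparison was not matched for depth, so it does not decide whether these shares exceed the background. Microglia had a median of 52 transcripts in control and 159 in KO tissue. All cells of the dorsal pallial zone had 31 and 95, and those of the ventral or diencephalic zone 34 and 127. Depth differed between the sections in every zone, with a median of 37 and 149 transcripts in the ventral pallial zone. Of the cells there that held *Lhx6* and a Gad gene, 26 of 153 (17.0%, 11.4 to 23.9) were *Sst* cells in the control section, as were 212 of 655 (32.4%, 28.8 to 36.1) in the KO section. In the dorsal pallial zone this was so for 7 of 284 (2.46%) and 90 of 2173 (4.14%). The *Lhx6* and Gad cells had a median of 56 and 205 transcripts other than *Sst* in the ventral pallial and of 44 and 140 in the dorsal pallial zone, and the part of depth in this difference was not tested. The intervals of the ventral pallial zone and of each of the other 4 zones did not overlap in either section.

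The hemispheres of the control section differed. Of its *Sst* cells, 10.0% lay in pallial surroundings in 1 hemisphere and 34.8% in the other, against 24.0% and 23.2% in the KO section. Over the whole section the share was 25.9% (20.9 to 31.5) in control and 23.6% in KO tissue, so the difference between sections was smaller than that between the control hemispheres, and its direction depended on which were compared.

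*Sst* cells neighboured each other. Another *Sst* cell lay within 50 µm of 71.9% (66.3 to 77.1) of the *Sst* cells of the control section and 92.6% (91.3 to 93.8) of those of the KO section, while an *Sst* cell lay within that distance of 11.9% and 27.4% of other cells. After the KO section was thinned to control depth, the share was 72.1%. The median distance to the nearest *Sst* cell was 31.2 µm and 15.1 µm from *Sst* cells, and 244 µm and 105 µm from other cells. The zones differed in their density of *Sst* cells, and these shares and distances were not compared within zones. Close pairs can also be parts of a cell that segmentation divided, and this was not tested.

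The *Sst* cells of different zones differed in their other transcripts. *Npy* was highest in the striatal zone, at 25149 CPM (19145 to 32441) in control and 42564 CPM (41160 to 44005) in KO tissue. It was lowest in the zone of the ventral or diencephalic list, at 4410 CPM (1904 to 8690) and 5032 CPM (4241 to 5927). In the control section the interval of that zone overlapped those of the ventral unassigned and dorsal pallial zones, and the interval of the striatal zone overlapped those of both pallial zones. The dorsal pallial, ventral pallial and ventral unassigned zones lay between, at 15217, 15910 and 10520 CPM in control and 16400, 13649 and 15059 CPM in KO tissue. In every one of these zones *Npy* was above its level in the other cells of the zone, with log2 ratios from 2.54 to 4.38.

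*Elfn1* and *Nxph1* were lower in the striatal than in the ventral pallial zone. In the striatal zone *Elfn1* was 2131 CPM (692 to 4974) in the control section and 650 CPM (487 to 850) in the KO, and in the ventral pallial zone 12830 CPM (9523 to 16915) and 4336 CPM (3873 to 4840). *Nxph1* was 18989 and 9558 CPM in the ventral pallial zone against 5968 and 2955 CPM in the striatal zone. *Rxrg*, a retinoid receptor of striatal neurons, was at 14493 and 24158 CPM in striatal *Sst* cells and at 26315 and 28572 CPM in the cells around them. *Lhx6* in the KO section was highest in the ventral unassigned zone, at 21223 CPM (20548 to 21915), and in the ventral pallial zone was 8359 CPM (7710 to 9047). In the control section these values were 25362 and 12830 CPM. *Sox6* in the KO section was likewise higher in the ventral unassigned (4498 CPM) than in the ventral pallial zone (1868 CPM).

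**Figure D4:**
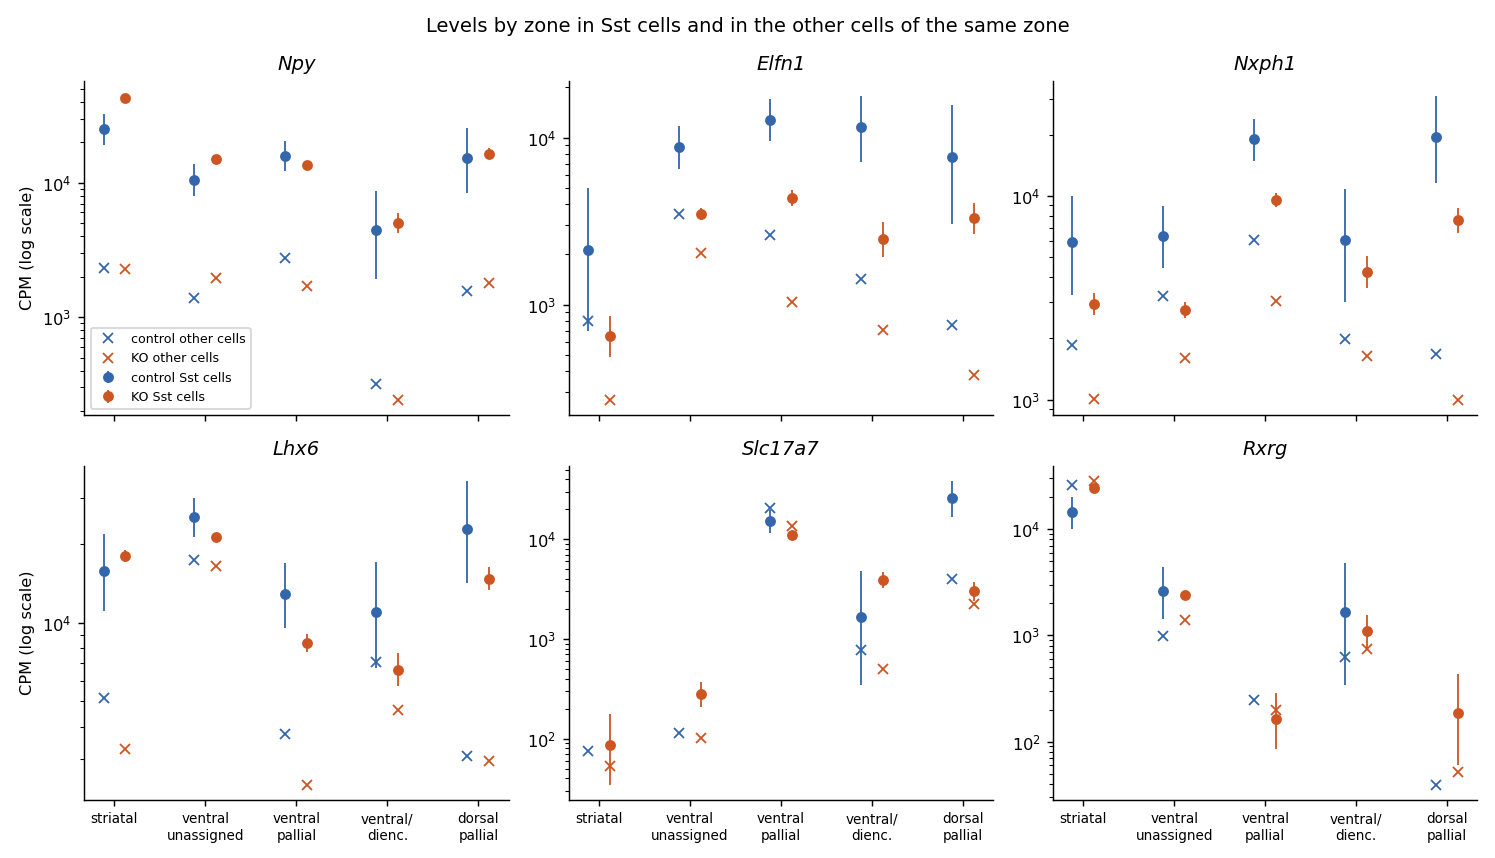
Levels of genes in CPM (vertical axis, log scale) in the *Sst* cells of 5 zones, as points with exact 95% Poisson intervals, beside the other cells of the same zone as crosses, for the control and KO sections. Sets with no transcript of a gene are not drawn, and *Npy* in *Sst* cells lies above the crosses in each zone.

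Transcripts of the glutamatergic gene *Slc17a7* in *Sst* cells followed their place. At least 2 were held by 17 control (6.12%) and 147 KO *Sst* cells (8.05%), of which 16 and 124 lay in pallial and 0 in striatal surroundings. Most of these cells, 14 and 135, also held *Gad1* or *Gad2*, so transcripts of both transmitter systems were assigned to 1 cell. They had a median of 99 and 309 panel transcripts and a volume of 1931 and 1614 µm³, against 46 and 192 transcripts and 1413 and 1283 µm³ in all *Sst* cells. In the ventral pallial zone *Slc17a7* was 15140 CPM in control and 11058 CPM in KO *Sst* cells, and 20517 and 13524 CPM in the cells around them. Whether segmentation gave *Sst* cells the transcripts of their neighbours was not tested.

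*Lhx6* divided the *Sst* cells into 146 with and 132 without a transcript in the control section, and 1502 with and 323 without in the KO section. A cell without a transcript may still express the gene, since thinning the KO cells with *Lhx6* to 20 transcripts left it in 35.7% of them (mean over all draws). Depth was similar on both sides, at a median of 45 and 41 transcripts other than *Sst* in control and 189 and 178 in KO tissue. Of the 100 genes with at least 10 transcripts on each side in both sections, 1 (1%) was at least 2-fold higher with *Lhx6* in both and 0 (0%) lower. With cells of at least 1 *Sst* transcript, a set that holds more cells, 24 genes passed, 6 higher and 18 lower. At least the same 100 genes were tested there, but the full number was not recorded, so no share is given.

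Among the highest ratios with *Lhx6* were those of *Sp9* (0.84 and 0.62), *Dlx1* (0.57 and 0.65), *Slc32a1* (0.63 and 0.55), *Parm1* and *Plcb4*, of which the first 2 are transcription factors of GABAergic precursors. Among the lowest were *Igfbp5* (-0.76 and -0.94), *Peg10* (-0.66 and -1.39), *Ndrg1*, *Pcdh9* and *Kcng1*. In the KO section the *Peg10* ratio rested on cells within 500 µm of the dividing line, as outside them *Peg10* was 7500 CPM without and 6239 CPM with *Lhx6*. In the deeper KO section alone, *Sox6* (1.54) and *Npy* (1.41) were also higher with *Lhx6*, and *Tbr1* lower (-1.06). Their control ratios were -0.31 (-1.71 to 1.08), 0.39 and -0.43.

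*Sst* cells without *Lhx6* still held GABAergic transcripts. *Gad1* or *Gad2* was seen in 68.2% of them in control and 86.4% in KO tissue, against 80.8% and 95.9% of those with *Lhx6*. After thinning to 20 transcripts the means over all draws were 46.0% (37.2 to 55.1) without and 51.1% (42.6 to 59.5) with *Lhx6* in the control section, and 35.5% (30.4 to 41.1) and 45.1% (42.6 to 47.7) in the KO section. For *Npy* they were 17.2% (11.1 to 24.9) without and 17.6% (11.6 to 24.7) with *Lhx6* in the control section, and 14.3% (10.6 to 18.5) and 26.9% (24.7 to 29.2) in the KO section. The intervals of both sides thus overlapped in control but not in KO tissue for both readouts, and the difference between the sections was not tested.

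In the KO section the share with *Lhx6* differed between zones. After thinning, the mean share over all draws was 34.8% (31.5 to 38.1) of KO *Sst* cells in the ventral unassigned, 32.2% (27.8 to 36.8) in the striatal and 29.5% (21.9 to 38.4) in the dorsal pallial zone. It was 16.6% (12.5 to 21.2) in the ventral pallial zone and 13.0% (7.69 to 21.1) in the zone of the ventral or diencephalic list, both below the other 3 zones beyond counting error. In the control section it was 39.0% in the ventral unassigned, 37.1% in the dorsal pallial, 24.6% in the striatal and 22.7% in the ventral pallial zone and 23.5% for the ventral or diencephalic list, and all intervals overlapped.

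A medial group, within 500 µm of the dividing line, had 6 *Sst* cells in control and 67 in KO tissue, of which 5 and 43 lacked *Lhx6*. In the KO section these 43 were set beside the 274 *Sst* cells without *Lhx6* elsewhere in the brain. *Onecut2*, a transcription factor of the ventral or diencephalic list, was 17596 CPM (15219 to 20239) in the medial cells and 511 CPM elsewhere. *Peg10* was 69845 and 7500 CPM. These 43 cells had 1 *Npy* transcript, or 89.8 CPM (up to 500.19), against 10346 CPM elsewhere, and *Sox6* stood at 180 against 1588 CPM. *Irs4* and *Baiap3*, of the same list as *Onecut2*, stood at 4848 and 6105 CPM, against 109 and 1588 CPM elsewhere. The 24 medial KO cells with *Lhx6* had part of this content, with *Peg10* at 32344 CPM against 6239 in those with *Lhx6* elsewhere and *Irs4* at 1903 against 116 CPM, while *Npy* was 5708 CPM and *Onecut2* 1332 CPM. In the control section the 5 medial cells without *Lhx6* held 3 *Npy* transcripts, or 13699 CPM (2825 to 40033), against 11859 CPM elsewhere, and 0 of *Onecut2*, which allows up to 16844 CPM. Their *Irs4* and *Peg10* were high as in the KO cells, at 18265 CPM (4977 to 46765) against 160 elsewhere and 50228 CPM (25074 to 89872) against 13141. The 500 µm limit was set after the map had been seen.

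KO and control *Sst* cells were then compared gene by gene, with the same ratio in all other cells of the sections beside it. Of 211 genes, 16 (7.58%) were at least 2-fold higher in KO *Sst* cells and 18 (8.53%) at least 2-fold lower, around a median of -0.02 (0.06 in other cells). With the KO section thinned to control depth, 12 were higher and 11 lower, and 16 genes were shared with the first set.

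**Figure D5:**
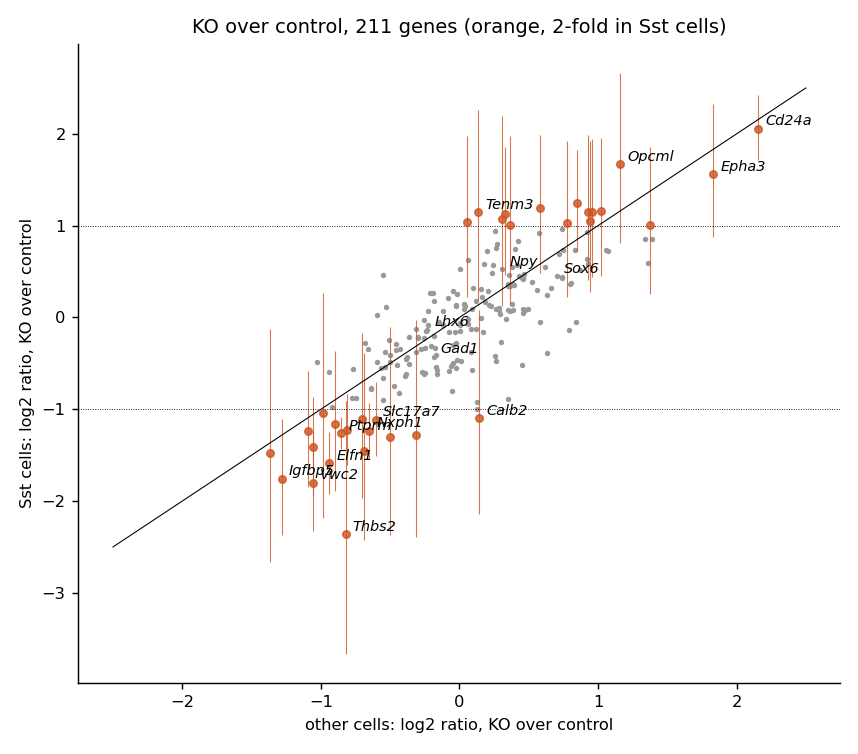
Log2 ratio of KO over control for 211 genes, in all other cells on the horizontal and in *Sst* cells on the vertical axis, with genes at least 2-fold apart in *Sst* cells in orange. *Cd24a* lies far up in both, at 2.16 in other cells and 2.06 in *Sst* cells.

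Genes that were higher in KO *Sst* cells were mostly higher in the other cells of the section too. *Cd24a*, a surface glycoprotein of young neurons, was at 2.06 (1.71 to 2.42) in *Sst* cells and 2.16 in other cells, *Epha3*, an ephrin receptor, at 1.56 and 1.83, *Opcml* at 1.67 and 1.16, and *Rnd3* at 1.16 and 1.02. Of the striatal projection list, 9 genes were tested and 4 were higher, *Foxp1* (1.25 in *Sst* cells, 0.85 in other cells), *Ebf1* (1.15 and 0.96), *Isl1* (1.15 and 0.93) and *Drd2* (1.003 and 0.36). They rested on 14 to 36 control transcripts each, and the lower bounds in *Sst* cells ran from 0.15 to 0.72. The higher genes that stood furthest from other cells were *Tenm3* (1.15 against 0.14) and *Ddr1* (1.04 against 0.05), followed by *Serpine2* and *Syndig1*. These 4 rested on 11 to 23 control transcripts each. With a minimum of 30 transcripts in each section, or of 3 *Sst* transcripts per cell, the count of higher genes was 2.

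The lower genes included *Elfn1* and *Nxph1*. *Elfn1* was at -1.59 (-1.92 to -1.25) in *Sst* cells and -0.94 in other cells, from 8854 to 2940 CPM, and at -0.77 (-1.35 to -0.21) when the KO section was thinned. After thinning of each cell to 20 transcripts, the mean share over all draws was 14.6% (10.4 to 19.1) of the *Sst* cells of the control section and 5.29% (4.28 to 6.39) of those of the KO section. For these shares the cells were chosen at the deposited depth, which differed between the sections. *Nxph1* was at -1.23 in *Sst* cells, -0.65 in other cells and -1.10 after thinning of the section. *Vwc2* was at -1.80 and -1.06, *Igfbp5* at -1.76 and -1.28, *Adra2a* at -1.41 and -1.06, and *Slc17a7* at -1.12 and -0.60. *Ebf3*, *Ngfr*, *Th*, *Calb2* and *Thbs2* (-2.36 against -0.82) were also lower, on 10 to 15 control transcripts each. *Elfn1* and *Nxph1* were the 2 of 8 tested MGE genes that passed 2-fold, where 8.53% of all 211 genes were lower. With the KO section thinned, *Elfn1* no longer passed. The median of the MGE list was -0.02, as over all genes tested.

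The other MGE and GABA genes differed by less than 2-fold between KO and control *Sst* cells. *Npy* was at 0.53 (0.29 to 0.77) in *Sst* cells and 0.31 in other cells. *Lhx6* was at -0.13 (-0.34 to 0.08), *Sox6* at 0.45 (-0.09 to 1.03), *Erbb4* at 0.10 (-0.24 to 0.46) and *Dlx1* at 0.51 (-0.06 to 1.13), intervals that all included 0. *Gad1* was at -0.43 (-0.60 to -0.25) and *Gad2* at 0.33. Of the panel genes that the study's text names in *Sst-Cre* cells of other samples, *Dlx1*, *Sox6*, *Lhx6*, *Erbb4* and *Reln* did not pass 2-fold in either direction. The study reported them as raised after *Dnmt1* deletion in bulk RNA of sorted cells from an earlier stage. It called them by adjusted p-value, so the 2-fold limit here is a different measure. It also reported higher *Erbb4* in single *Sst* and *Gad2* nuclei of KO cortex at the present stage. Within the ventral unassigned zone alone, where 96 genes could be compared, 2 were higher and 12 lower, with *Elfn1* at -1.34, *Nxph1* at -1.21, *Vwc2* at -1.87 and *Cd24a* at 1.79.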

How the data were processed

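MERFISH was run by the authors on the MERSCOPE instrument, which decoded the molecules, segmented the cells and counted molecules per cell. The deposited values were raw counts per cell and gene, cell volumes (a signal in µm³), positions of cell centres and positions of single molecules. The segmentation model and the genome build are not given in the sources used here. Cell types and a cortical outline made by the authors were not used.

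From these counts, cells with at least 20 panel transcripts and at least 2 *Sst* transcripts were chosen, blank barcodes left out. Control cells held 2842355 panel transcripts and KO cells 13437174, a median of 20 and 101 per cell, and blank barcodes 0.496% and 0.486%. The members, lists and rules were chosen with earlier results of these data known. Summed counts were divided by all panel transcripts of the cells without *Sst*, times 1000000 (CPM), and compared as log2 ratios without a pseudocount. Genes needed at least 10 transcripts in each group compared. Where *Sst* cells were set against cells outside the rule, the minimum applied to the *Sst* cells of both sections only. Sums carry exact Poisson and shares exact binomial (Clopper-Pearson) 95% intervals. Cells were thinned to 20 transcripts by 1 random draw per set of cells, or by the exact (hypergeometric) mean over all draws, whose interval is that of the mean rounded to whole cells. A ratio is bounded by opposite ends of both intervals, which is wider than a 95% interval.

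A region was the list (pallial, striatal, ventral or diencephalic, connective) whose share of the transcripts of other cells within 100 µm was highest and at least 1.5 times that of the whole section. Genes named are the listed ones and those highest or lowest by rank (10 and 5 against other cells, 8 and 8 between sections, before and after the ratio of other cells was subtracted, 6 and 6 for *Lhx6*). *Moxd1*, *Stxbp6*, *Ptprm*, *C1ql3*, *Prdm8*, *Il1rapl2*, *Cbln2*, *Pou3f2*, *Peg10* and *Onecut2* in the other comparisons were named after their values had been seen. So were set the anatomical axes, the zones, the limits of 200 and 500 µm, the comparison within zones, the splits by *Slc17a7* and the minimum of 3 microglial transcripts. Results for a few panel genes are not reported here. As a check on merged cells, the largest 1% of cells by volume were dropped in an alternative. Scripts used Python 3.11.15, numpy 2.4.6, scipy 1.17.1, pandas 2.3.3 and matplotlib 3.10.9 and were tested on simulated data. Gene positions come from GENCODE on GRCm39.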

Additional observations from a re-analysis of the deposited data

How the results depend on the processing

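No leave-one-out was possible with 1 section per group. No paired analysis was possible because each group has 1 section and no result comes from a test. The alternatives with other cells of the same zone, at least 2 *Lhx6* transcripts, the ventral unassigned zone alone, or the mean over all draws were chosen after seeing the data. The KO over control ratio of the share of *Sst* cells (log2, 1.84) was 1.03 with at least 1 *Sst* transcript, 2.49 with at least 3, 2.32 and 1.24 with minimums of 10 and 50 transcripts, 0.034 with KO counts thinned and 2.09 for 1 pairing of hemispheres. The KO minus control difference in pallial share (-2.34 percentage points) was -12.1 with at least 3 *Sst* transcripts, -14.7 with 50 transcripts, and 13.9, 13.2, -10.9 and -11.6 for single hemispheres. That in the share with an *Sst* cell within 50 µm (20.7 points) was 13.5 with at least 1 and 41.2 with at least 3 *Sst* transcripts, 39.3 with 50 transcripts, 0.136 with KO counts thinned, and 33.8 and 7.25 at 25 and 100 µm. Without thinning of cells the differences for *Lhx6* (-3.62 points) and *Gad1* or *Gad2* (-3.28) became 29.8 and 19.4. As means over all draws they were -1.01 and -5.23. Without the 1% largest cells that of *Gad1* or *Gad2* was -11.1 (-19.6 to -2.47) in 1 draw and -5.69 (-14.2 to 2.91) as the mean over all draws. The 45 genes higher in *Sst* cells became 80 at 1.5-fold, 24 with at least 30 transcripts, 9 against *Lhx6* and Gad cells and 11 within zones, and the 22 lower genes became 41 and 3 with at least 1 and 3 *Sst* transcripts, 11 with 50 transcripts, 14 with KO counts thinned and 5 with at least 30 transcripts. The 34 genes between KO and control (16 higher, 18 lower) became 16 with at least 3 *Sst* transcripts (2 and 14), 73 at 1.5-fold (35 and 38), 11 with at least 30 transcripts (2 and 9) and 14 in the ventral unassigned zone. The 1 gene between cells with and without *Lhx6* became 24 with at least 1 *Sst* transcript (6 higher, 18 lower), 0 with at least 3, 0 with KO counts thinned, 2 without the 1% largest cells and 6 at 1.5-fold. For the 24, the number of genes tested was not recorded. The causes were not tested. Of single genes, *Tcerg1l* in the control section turned, to -0.68, with at least 3 *Sst* transcripts. Of the control *Sst* cells, 64.0% sit at the minimum of 2 transcripts.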

Other observations

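The deposited list of single molecules also shows *Sst* outside the cells counted here. It held 2745 *Sst* molecules in control and 13038 in KO tissue, of which 26.4% and 54.2% lay in *Sst* cells, 57.4% and 30.8% in other segmented cells (cells under the transcript minimum included) and 16.2% and 14.96% outside any cell, against 18.6% and 18.4% outside for all panel genes. Of the *Sst* molecules outside cells, 19.8% in control and 48.0% in KO tissue lay within 15 µm of the centre of an *Sst* cell, with a median distance of 36.1 µm and 16.3 µm. For *Lhx6* these shares were 5.61% and 21.3%, and for *Npy* 12.4% and 37.2%.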
